A study of Mus musculus with 59 samples.

Results

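The genes described here are 10 members of the mammalian circadian clock: the period genes Per1, Per2 and Per3, the nuclear receptor repressors Nr1d1 and Nr1d2 (REV-ERB alpha and beta), the basic helix-loop-helix repressors Bhlhe40 and Bhlhe41, the output regulator Dbp, the repressor Ciart (also called CHRONO) and the activator Arntl (BMAL1). They were taken by name from a table of 18088 genes, and all 10 were among the 16546 genes with a mean of at least 10 normalized counts that were tested. The table came from messenger RNA of the prefrontal cortex of C57BL/6J mice at postnatal day 25, in 59 libraries. Mice were wild type (WT) or labelled heterozygous (HT) for Myt1l, a zinc finger factor of neurons, and belonged to a vehicle, a fluoxetine or a lithium arm. Fluoxetine is an antidepressant that blocks the reuptake of serotonin, and lithium salts are used to steady mood in bipolar disorder. The drug was given between postnatal days 3 and 24, for 3 weeks, through the milk of the mother, so that doses reaching a pup are not known. Each of the 12 groups of genotype, drug and sex held 5 libraries, except WT females under fluoxetine with 4. Neither the hour of dissection and the light cycle nor the litter and dam of a mouse is given in the sources used here, so their part was not tested.

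In the clock loop of most mammalian cells, BMAL1 and CLOCK bind E-box elements and switch on the Per, Cry, Nr1d, Bhlhe, Dbp and Ciart genes. PER and CRY proteins, DEC1 and DEC2 (the products of Bhlhe40 and Bhlhe41) and CHRONO then hold back that activation, while the REV-ERB receptors repress Arntl itself, so that Arntl peaks at the opposite time of day from Dbp, Nr1d1 and the Per genes. The suprachiasmatic nucleus of the hypothalamus sets the time for clocks in other tissues, and the cortex carries such a clock. Per1 and Bhlhe40 also respond to neuronal activity.

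Promoter windows are shown for 6 members, and their motifs were not tested against the results below. Of the 10 members, 8 matched a RefSeq promoter table of the build GRCm38.p6, which gives 250 bases before and 50 after a transcript start; Per2 and Bhlhe40 did not match. Capitals mark the E-box CACGTG, which 7.15% of the 32851 promoters in that table hold, the D-box TTATGTAA bound by DBP and its relatives (0.938%), and AGGTCA, the core of the element bound by ROR and REV-ERB receptors (16.3%). The cyclic AMP element TGACGTCA (1.79%) was searched too and found in none of the members' windows. Both strands were searched, and no match overlapped another. Positions are chr11:98775328-98775627, minus strand, for Nr1d1, chr11:69098699-69098998, plus strand, for Per1, chr6:145865371-145865670, minus strand, for Bhlhe41, chr3:95882179-95882478, minus strand, for Ciart, chr4:151044616-151044915, minus strand, for Per3, and chr7:113207261-113207560, plus strand, for Arntl. Each is written 5′ to 3′ on the strand of its gene.
Nr1d1: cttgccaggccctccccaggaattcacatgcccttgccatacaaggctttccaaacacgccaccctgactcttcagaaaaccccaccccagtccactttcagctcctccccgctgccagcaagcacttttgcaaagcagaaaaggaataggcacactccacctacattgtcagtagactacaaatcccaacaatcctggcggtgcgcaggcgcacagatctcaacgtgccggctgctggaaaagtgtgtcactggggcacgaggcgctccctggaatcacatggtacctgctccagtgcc
Per1: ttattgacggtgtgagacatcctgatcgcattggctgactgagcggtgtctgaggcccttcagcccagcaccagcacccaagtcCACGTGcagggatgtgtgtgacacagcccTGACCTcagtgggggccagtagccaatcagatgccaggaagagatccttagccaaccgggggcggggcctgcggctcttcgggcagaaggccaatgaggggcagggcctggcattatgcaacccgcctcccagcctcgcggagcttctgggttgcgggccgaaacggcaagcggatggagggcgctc
Bhlhe41: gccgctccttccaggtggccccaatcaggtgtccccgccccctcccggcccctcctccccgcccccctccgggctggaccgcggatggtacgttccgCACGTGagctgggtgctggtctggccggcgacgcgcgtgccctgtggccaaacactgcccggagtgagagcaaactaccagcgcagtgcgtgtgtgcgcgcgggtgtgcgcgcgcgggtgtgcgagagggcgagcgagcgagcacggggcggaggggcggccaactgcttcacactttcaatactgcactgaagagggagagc
Ciart: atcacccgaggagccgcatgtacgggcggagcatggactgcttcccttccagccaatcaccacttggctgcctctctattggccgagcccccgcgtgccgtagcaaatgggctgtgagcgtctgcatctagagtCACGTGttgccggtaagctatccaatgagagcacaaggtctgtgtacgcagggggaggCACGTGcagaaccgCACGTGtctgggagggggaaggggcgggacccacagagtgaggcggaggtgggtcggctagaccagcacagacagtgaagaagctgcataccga
Per3: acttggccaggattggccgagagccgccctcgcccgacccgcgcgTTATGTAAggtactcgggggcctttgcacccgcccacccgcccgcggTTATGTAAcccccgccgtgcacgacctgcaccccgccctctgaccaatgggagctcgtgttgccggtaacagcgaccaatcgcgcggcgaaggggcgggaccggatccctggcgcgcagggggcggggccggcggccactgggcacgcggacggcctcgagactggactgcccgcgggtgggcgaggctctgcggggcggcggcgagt
Arntl: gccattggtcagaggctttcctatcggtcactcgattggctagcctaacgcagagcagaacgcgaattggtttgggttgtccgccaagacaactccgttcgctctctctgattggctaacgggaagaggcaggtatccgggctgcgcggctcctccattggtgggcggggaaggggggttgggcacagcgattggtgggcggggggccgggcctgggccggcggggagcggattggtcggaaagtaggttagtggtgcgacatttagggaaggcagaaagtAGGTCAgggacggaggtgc
The Ciart window held 3 E-boxes, beginning at bases -116, -58 and -44 from the transcript start, and the Per1 and Bhlhe41 windows held 1 each, at -166 and -153. The table holds a further window for Per1 and for Arntl, not printed, and neither contains any of the 4 motifs. The Per3 window held 2 D-boxes, at -205 and -158. The AGGTCA core lay at -137 in Per1, where it is on the other strand, and at base 31 in Arntl. The window of Nr1d2, not printed, held 1 such core at -77, and those of Nr1d1 and Dbp held none of the 4 motifs.

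Some libraries stood apart from the others in ways that touch the results. Recovered read totals ran from 25088446 to 35858365. The labels give no detail of the Myt1l allele. The transcript of Myt1l was not lower in libraries labelled HT (median 8501 normalized counts in HT vehicle and 7016 in WT vehicle), so it does not check the genotype labels. Cortical markers were present throughout, with Slc17a7, the glutamate transporter of cortical projection neurons, at 25586 or more in each library. The 14 libraries of HT females, HT males and WT females under fluoxetine were set apart from the other 45, with mt-Atp6 at 10202 to 20887 against 36054 to 70728. Markers of the olfactory bulb, such as Cdhr1 and Doc2g, were high in many fluoxetine libraries, with a summed level over 10 genes of 1621 to 20816 in WT fluoxetine against 239 to 4728 in WT vehicle, and of 252 to 27455 in HT fluoxetine against 295 to 2681 in HT vehicle. In 5 libraries striatal markers were high, 2 of them under vehicle and 3 under fluoxetine. Of 12 listed suprachiasmatic and hypothalamic markers, 5 had values, led by Vip, which cortical interneurons also express. In bulk tissue, fewer cells of a type and less RNA per cell cannot be told apart.

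Under lithium in WT mice, several clock genes were lower than under vehicle. Of the 10 members, 5 were called (limma adjusted p under 0.05 over all tested genes), all of them lower: Nr1d1, Per1, Nr1d2, Bhlhe40 and Bhlhe41. Among all 16546 genes, 1.61% were called in this comparison and 0.616% were called lower. The median log2 difference of the 10 members was -0.27 and that of all tested genes was 0.00. Across the alternative fits tried, and on leaving out any of the 20 libraries compared, all 5 stayed called. When just the compared groups were fitted, 7 members were called, and 6 without the libraries high in striatal genes. Calls over all 16546 genes rose too, from 266 to 617 and 443 in those 2 fits.

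**Figure D1:**
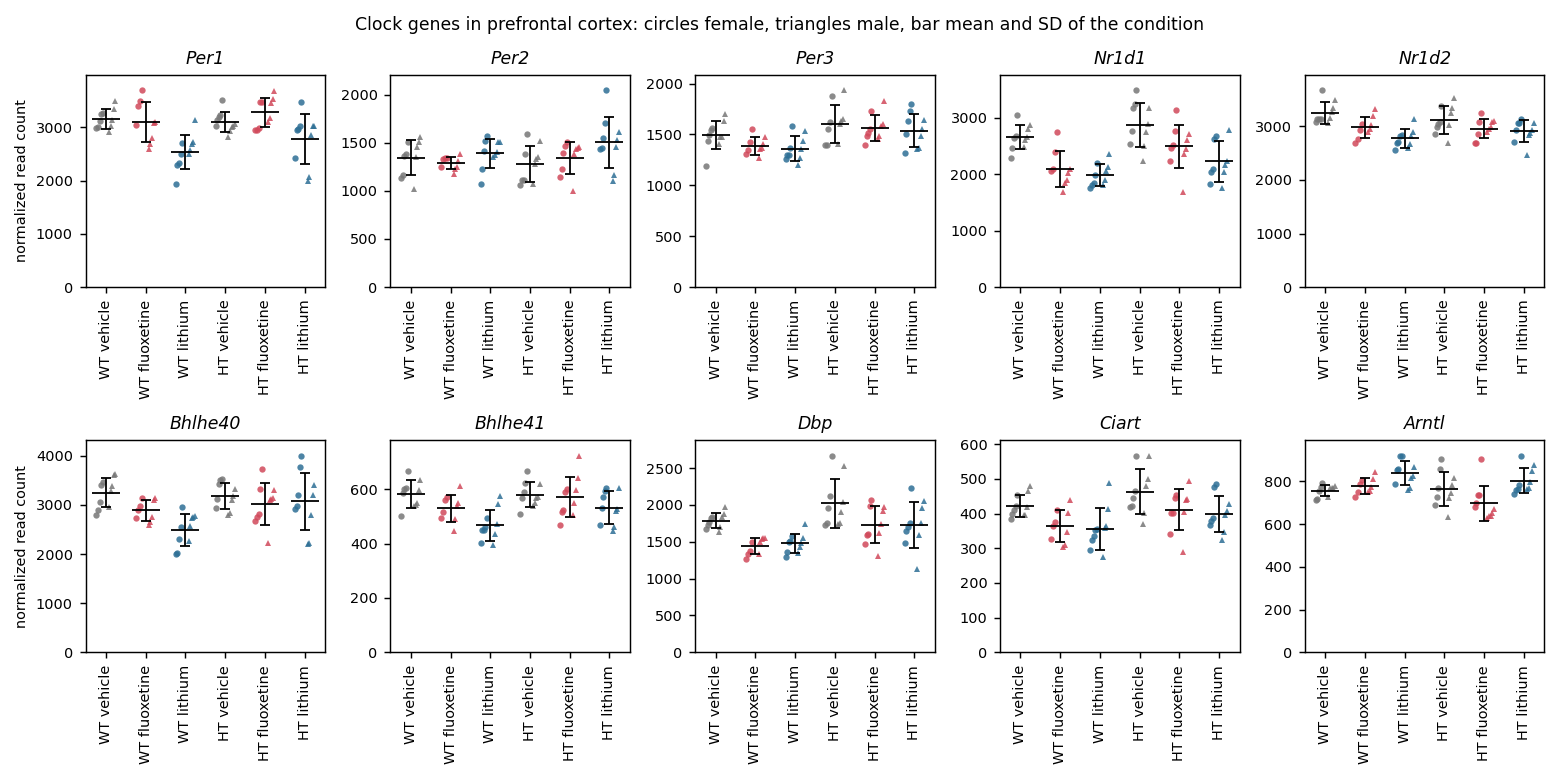
Normalized read counts of the 10 clock genes in each library, by genotype and drug, with 1 panel per gene and all axes starting at 0. Circles are females, triangles males, bars give the mean and SD of the 9 or 10 libraries, and Nr1d1 ran from 1759 to 2362 in WT lithium libraries and from 2292 to 3048 in WT vehicle libraries.

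Nr1d1 encodes the receptor that represses Arntl (ENSMUSG00000020889, chromosome 11, 98767932 to 98775333, minus strand, GRCm38). Its lowest, median and highest normalized counts were 2292, 2654 and 3048 in the 10 WT vehicle libraries and 1759, 1949.7 and 2362 in the 10 WT lithium libraries. The ranges overlapped narrowly, and 9 of 10 lithium libraries lay below the lowest vehicle library. The fall was 0.748-fold, a log2 difference of -0.42 (SE 0.081, limma adjusted p = 0.00306). It ranked 20 among all 16546 genes by p. The 3' part of Nr1d1 overlaps Thra, a thyroid hormone receptor gene on the opposite strand, by 1075 bases, and Thra was far more abundant (mean 23355 normalized counts). Strand-specific counting is not recorded, so reads in the overlap are uncertain. Thra had a log2 difference of 0.24 in the same comparison (limma adjusted p = 0.0657), opposite in sign to that of Nr1d1.

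Per1, a core repressor that light, glucocorticoids and neuronal activity also induce (ENSMUSG00000020893, chromosome 11, 69095217 to 69109960, plus strand), ran at 2914, 3134 and 3505 in WT vehicle libraries (lowest, median, highest) and at 1929, 2541 and 3131 in WT lithium libraries. Of the lithium libraries 9 of 10 lay below the vehicle range. It fell by 0.32 on the log2 scale (SE 0.064, limma adjusted p = 0.00381). Nr1d2, the second REV-ERB gene (ENSMUSG00000021775, chromosome 14, 18204054 to 18239127, minus strand), ran at 3059, 3145 and 3677 under vehicle and at 2568, 2769 and 3148 under lithium, again with 9 of 10 lithium libraries below the vehicle range. It fell by 0.23 (SE 0.0451, limma adjusted p = 0.00394).

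Both E-box repressors, Bhlhe40 and Bhlhe41, were lower under lithium in WT. Bhlhe40 (ENSMUSG00000030103, chromosome 6, 108660629 to 108666925, plus strand) ran at 2803, 3335 and 3621 in WT vehicle libraries and at 2007, 2558 and 2954 in WT lithium libraries. It fell by 0.39 (SE 0.0776, limma adjusted p = 0.00394), with 9 of 10 lithium libraries below the vehicle range. Bhlhe41 (ENSMUSG00000030256, chromosome 6, 145858243 to 145865558, minus strand) ran at 500.3, 592 and 668 under vehicle and at 395, 457 and 575 under lithium. Its fall was 0.801-fold, a log2 difference of -0.32 (SE 0.0675, limma adjusted p = 0.00774), and 8 of 10 lithium libraries lay below the vehicle range.

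The output gene Dbp and the repressor Ciart had differences of like size in WT lithium libraries that did not pass the threshold. Dbp (ENSMUSG00000059824, chromosome 7, 45705088 to 45710203, plus strand) had a log2 difference of -0.27 (SE 0.0842, limma adjusted p = 0.0808), with 9 of 10 lithium libraries below the lowest vehicle library. Ciart (ENSMUSG00000038550, chromosome 3, 95878503 to 95882251, minus strand) had -0.26 (SE 0.0873, limma adjusted p = 0.121), with 8 of 10 below that range and 1 library above it. Arntl, the activator (ENSMUSG00000055116, chromosome 7, 113207465 to 113314126, plus strand), had a log2 difference of 0.14 (SE 0.0477, limma adjusted p = 0.115), and 7 of 10 lithium libraries lay above the highest vehicle library. With just the compared groups fitted, Dbp and Arntl passed the threshold as well.

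Per2 and Per3 did not pass the threshold under lithium in WT, and their difference from Per1 was not tested. Per2 (ENSMUSG00000055866, chromosome 1, 91415982 to 91459324, minus strand) had a log2 difference of 0.06 (95% confidence interval -0.11 to 0.23) in WT lithium libraries. Per3 (ENSMUSG00000028957, chromosome 4, 151003652 to 151044665, minus strand) had -0.14 (interval -0.26 to -0.01, limma adjusted p = 0.280), with 8 of 10 lithium libraries below the vehicle mean. Per3 lies whole within Camta1 on the same strand, whose log2 difference here was -0.11.

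Both sexes moved in the same direction for the 5 called genes under lithium in WT. Nr1d1 had log2 differences of -0.45 in females and -0.39 in males, Per1 -0.42 and -0.23, Nr1d2 -0.24 and -0.21, Bhlhe40 -0.41 and -0.37, and Bhlhe41 -0.39 and -0.25. With 5 libraries a side, Per1 was called in females (limma adjusted p = 0.0486, 0.0665% of all genes called) and 0 members were called in males (0.0181% of all genes), where 7 had an unadjusted p under 0.05. The difference between the sexes was tested for each member and 0 were called.

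**Figure D2:**
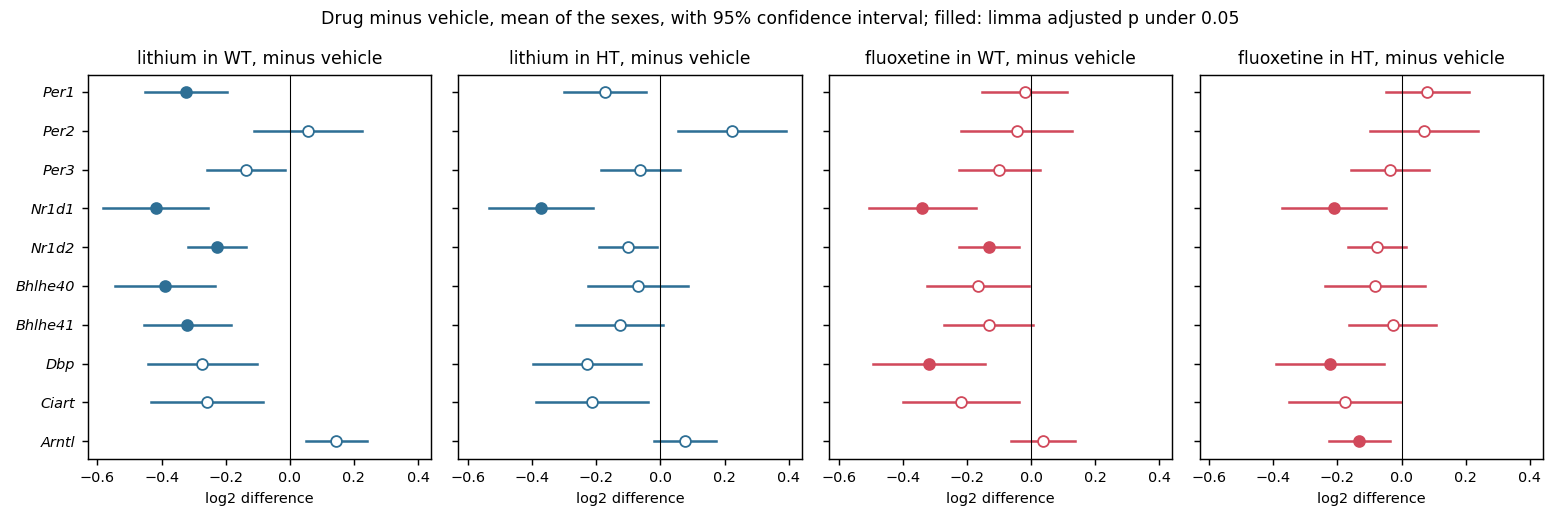
Log2 difference between drug and vehicle for each clock gene, the sexes averaged, in 4 panels of drug and genotype. Points are estimates, lines their 95% confidence intervals, and filled points have a limma adjusted p under 0.05; lithium in WT has 5 filled points, all left of 0, and Nr1d1 is filled in all 4 panels.

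In libraries labelled HT, Nr1d1 was the member called under lithium, and it was lower. Its normalized counts were 2237, 2830.0 and 3489 under vehicle (lowest, median, highest of 10) and 1754, 2132 and 2792 under lithium, with 7 of 10 lithium libraries below the vehicle range. The log2 difference was -0.37 (SE 0.081, limma adjusted p = 0.00605), and it was called in each alternative fit. Among all genes 2.84% were called and 1.57% were called lower. Per2 had 0.22 (limma adjusted p = 0.139), Dbp -0.23 (0.125), Ciart -0.21 (0.178) and Per1 -0.17 (0.132), all adjusted p-values of limma. Bhlhe40, which fell in WT, had -0.07 (interval -0.23 to 0.09), with counts from 2209 to 4006 under lithium against 2799 to 3538 under vehicle. Within a sex 0 members were called, with 0.538% of all genes called in HT females and 0.0484% in HT males.

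The lithium effect was not shown to differ between genotypes. The test of that difference called 0 of the 16546 genes (0%) and so 0 members. The widest gap among members was that of Bhlhe40, 0.32 higher in HT on the log2 scale (SE 0.11, interval 0.10 to 0.54, unadjusted p = 0.00525, limma adjusted p = 0.890). For Nr1d1 the gap was 0.05 (interval -0.18 to 0.27).

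Values of other lists are given beside the lithium falls because their members vary with some clock genes. Of 14 immediate early genes, markers of recent neuronal activity, 0 were called under lithium in WT, and their median log2 difference was -0.12. The corresponding median was -0.17 in HT, where 0 were called too. Oligodendrocyte markers, with which Arntl varied inversely (below), had a median of -0.33 in WT and -0.59 in HT, with 0 of 10 called in either. Of 15 glucocorticoid targets 2 were called higher in WT and 3 in HT. Olfactory bulb markers had 0 of 10 called under lithium in WT, with all 10 above 0 and a median of 0.56, and summed to 328 to 7829. With their level as a covariate the same 5 clock genes were called, where 474 of all 16546 genes were called. In HT, 2 of 10 astrocyte, 3 of 10 microglia and 3 of 10 endothelial and mural markers were called lower under lithium, and 0 in WT. The part of the early genes, the glia and the hormone targets in the lithium results was not tested.

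Nr1d1 and Dbp were lower under fluoxetine in both genotypes, in comparisons where many genes changed. All HT fluoxetine libraries and the WT fluoxetine females lie among the 14 libraries set apart, and no vehicle library does. Drug and that division cannot be told apart in HT, nor in WT females. In WT, 3 of 10 members were called, all lower: Nr1d1, Dbp and Nr1d2. Of all genes 14.9% were called there and 6.08% were called lower. In HT, 3 of 10 were called, all lower: Nr1d1, Dbp and Arntl, with 29.2% of all genes called and 14.6% called lower. The share of members called in HT was near that of all genes. The fluoxetine and lithium comparisons of a genotype share their vehicle libraries. With the olfactory bulb level as a covariate, 0 members were called in either genotype. In that fit 23 of all 16546 genes were called in WT and 1065 in HT, against 2464 and 4833 without the covariate. The 10 bulb markers with values were all called higher under fluoxetine in both genotypes, with median log2 differences of 2.90 in WT and 2.54 in HT. Microglia markers, with which Dbp varied, had 5 of 10 called lower in WT and 7 of 10 in HT. In HT, 5 of 10 astrocyte, 5 of 10 endothelial and mural and 4 of 12 cortical projection neuron markers were called lower too, and in WT 1 of each list. The part of these cells in the fluoxetine results was not tested. The HT calls also rested on single libraries. Without HT fluoxetine female 4, 0 members were called, where 3562 of all genes were called. Without HT fluoxetine male 1 or female 3, or without HT vehicle female 3, male 2 or male 3, 1 was called (Arntl), and without HT vehicle female 4, female 5 or male 4, 1 was called (Dbp).

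Dbp counts did not overlap between the WT groups, and how many of all genes do the same was not counted. Its normalized counts were 1636, 1795 and 1968 in WT vehicle libraries (lowest, median, highest of 10) and 1267, 1493 and 1552 in the 9 WT fluoxetine libraries, so that each fluoxetine library lay below each vehicle library. It fell by 0.32 on the log2 scale (SE 0.0868, limma adjusted p = 0.0116) and had -0.20 with the bulb level as a covariate (limma adjusted p = 0.669). Dbp overlaps Sphk2, a sphingosine kinase gene on the opposite strand, by 737 bases, and Sphk2 was called higher there (log2 difference 0.23, limma adjusted p = 0.00841), so reads in that overlap are uncertain. In HT, Dbp ran from 1727 to 2669 under vehicle and from 1308 to 2066 under fluoxetine and fell by 0.22 (limma adjusted p = 0.0397), a difference whose call was lost in 9 of the 20 fits that leave out 1 library. Without the libraries high in striatal genes, 2 of which were HT vehicle libraries, that difference was -0.14 (limma adjusted p = 0.201).

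Nr1d1 fell by 0.34 under fluoxetine in WT (SE 0.0835, limma adjusted p = 0.00622), from a median of 2654 to 2061, with 7 of 9 fluoxetine libraries below the vehicle range. With the bulb level as a covariate it had -0.23 (limma adjusted p = 0.533). In HT it fell by 0.21 (SE 0.081, limma adjusted p = 0.0437), where 1 of 10 fluoxetine libraries lay below the vehicle range. The HT call of Nr1d1 was lost in 11 of the 20 fits that leave out 1 library. Nr1d2 fell by 0.13 in WT with an adjusted p of 0.0490 in limma, at the threshold, and that call was lost in 12 of the 19 fits that leave out 1 library. Arntl fell by 0.13 in HT (limma adjusted p = 0.0327) and had 0.04 in WT. That gap between genotypes, -0.17, had an unadjusted p of 0.0172 in limma and an adjusted p near 1. In that test of the fluoxetine effect between genotypes 0 members and 0.0302% of all genes were called.

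The WT males were the fluoxetine group outside the 14 libraries set apart. There, 0 members and 0% of all genes were called, while 4 members had an unadjusted p under 0.05. Nr1d1 counts were 2029, 1842, 1890.2, 2096 and 1677 in the 5 fluoxetine males and 2799.9, 2657, 2478, 2605 and 2874 in the 5 vehicle males. Its log2 difference was -0.49 (SE 0.115, interval -0.72 to -0.26), and its p ranked 3 among all 16546 genes, with a limma adjusted p of 0.342. The bulb markers of these males summed to 1621 to 10818. In WT females Dbp was called, at -0.37 (limma adjusted p = 0.0331), with 19.8% of all genes called. In HT, 0 members were called in females (6.85% of all genes) and 0 in males (13.4%). The fluoxetine effect on Nr1d1 differed between WT females and males by 0.31 (interval -0.02 to 0.65), which did not pass the test.

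Genotype left the clock genes without a call when the sexes were averaged. By limma, edgeR and DESeq2 alike 0 of 10 members were called in vehicle, fluoxetine and lithium libraries, with 0%, 0.0423% and 0.00604% of all genes called by limma. Members with an unadjusted limma p under 0.05 numbered 0 in vehicle, 4 in fluoxetine and 4 in lithium libraries. Within fluoxetine males, Arntl was called lower in the libraries labelled HT. Its counts were 654, 637, 673, 640.3 and 628 in HT and 749, 754, 812, 846 and 774 in WT, and the log2 difference was -0.28 (SE 0.0675, limma adjusted p = 0.0204, 1.83% of all genes called). That comparison sets libraries of the 14 against libraries outside them, so genotype and that division cannot be told apart. In fluoxetine females, where both groups lie among the 14, 0 members and 0% of all genes were called. Between the sexes, averaged over genotypes and drugs, 0 members were called, with 0.145% of all genes called and 0 members at an unadjusted p under 0.05.

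Other genes of the clock were mostly without a call under lithium. Under lithium in WT, 0 of 8 activators and cryptochromes, 0 of 7 further outputs and 0 of 10 modifiers of clock proteins were called. Among all genes 1.61% were called there. The median log2 differences of these 3 lists were -0.02, -0.05 and -0.02, against -0.27 for the members. The 3 largest differences were those of Rorb, a receptor that activates Arntl (-0.26), Npas2, a stand-in for CLOCK (0.23), and Prkaa1, an AMP-activated kinase subunit that marks CRY proteins for decay (-0.18). Gsk3b, the kinase that lithium inhibits and that phosphorylates several clock proteins, had -0.07. Under lithium in HT, Rorb fell by 0.30 (limma adjusted p = 0.0350) and the other 24 were not called. Rorb is also a marker of cortical layer 4 neurons.

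Under fluoxetine with the sexes averaged, Hlf and Tef, relatives of Dbp, were called lower in both genotypes. In WT, Hlf had -0.26 and Tef -0.20 (limma adjusted p = 0.00595 and 0.00217), and Usp2, a deubiquitinase under clock control, had -0.29, while Nfil3, the repressor that competes with DBP at the D-box, rose by 0.47 (limma adjusted p = 0.0180) and Noct, a clock-controlled phosphatase, by 0.12. In HT, Hlf, Tef, Usp2 and Wee1, a cell cycle kinase, fell and Nfil3 and Noct rose, which is 6 of 7 further outputs called, where 29.2% of all genes were called. Of the activators and cryptochromes, Cry1 rose by 0.23 and Rora and Rorb fell in HT, and Rorb fell in WT. Timeless rose in both genotypes, by 0.40 in HT and 0.29 in WT. In WT females 4 of 7 outputs were called lower and 2 higher (median -0.25), where 19.8% of all genes were called. In WT males 0 of 7 were called and 4 of 7 lay above 0 (median 0.04), where 0% of all genes were called. The females lie among the 14 libraries set apart and the males do not, so sex and that division cannot be told apart here. Of the other 18 genes 0 were called in WT males. These calls stand in comparisons where the bulb markers rose and where the 14 libraries set apart face vehicle libraries.

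Phase relations were read from the deviations of each library from its group mean on the log2 scale, so that drug and genotype differences do not enter. The within-group SD of the members ran from 0.0984 (Nr1d2) to 0.20 (Ciart) on the log2 scale. Over the 11056 genes with a mean of at least 200, the median SD was 0.141. Among those genes the members lay from percentile 16.95 (Nr1d2) to 79.57 (Ciart). Nr1d2, Arntl and Per3 lay below the median SD and the other members above it. Of the 45 pairs of members, 37 had a positive Pearson's r, and 7 pairs were called (permutation within groups, 100000 resamples, adjusted over the 45 pairs), all positive. For scale, the 16545 other tested genes were ranked by r with a member, highest first. Bhlhe40 ranked 6 for Per1 and 16 for Per2, and Per2 ranked 35 for Per1. Ciart ranked 10 for Nr1d1 and 36 for Dbp. In the remaining called pairs Dbp ranked 377 for Per3 and Ciart 645 for Bhlhe40, so many other genes had a higher r there. The hour of each library was not known, so these are relations across libraries and not across a day.

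**Figure D3:**
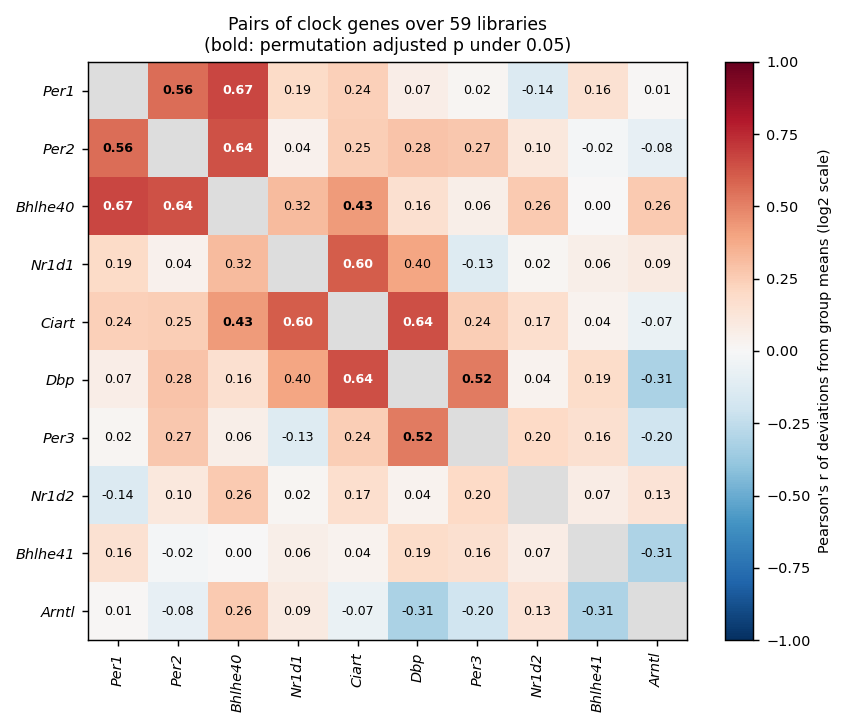
Pearson's r of deviations from group means for each pair of the 10 clock genes over 59 libraries, printed in each cell and shaded from blue at -1 to red at 1. Bold cells have a permutation adjusted p under 0.05, and the 7 bold pairs run from 0.43 to 0.67, and the row of Arntl holds none.

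Per1, Per2 and Bhlhe40 formed one set of linked genes. Per1 and Bhlhe40 had r = 0.667 (Spearman's rho = 0.626, permutation adjusted p = 0.0003 for r), Per2 and Bhlhe40 had r = 0.639 (rho = 0.609, adjusted p = 0.000337), and Per1 and Per2 had r = 0.558 (rho = 0.529, adjusted p = 0.00081), the p-values being from permutation. Without the 2 libraries farthest from the median of the first gene, the values were 0.609, 0.636 and 0.501. Within the 45 libraries they were 0.657, 0.558 and 0.549, and within the 14 they were 0.744, 0.924 and 0.606. Read by drug, the same 3 pairs had r of 0.165, 0.198 and 0.047 in the 20 vehicle libraries, 0.642, 0.802 and 0.631 in the 19 fluoxetine libraries, and 0.797, 0.866 and 0.823 in the 20 lithium libraries. The difference between drugs was not tested.

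Ciart was linked to both Dbp and Nr1d1. All 3 are direct targets of BMAL1, whose part in these links was not tested. Dbp and Ciart had r = 0.643 (rho = 0.655, permutation adjusted p = 0.0003), and 0.617 without the 2 farthest libraries, 0.606 within the 45 and 0.750 within the 14. By treatment their r was 0.650 in vehicle, 0.507 in vehicle without the libraries high in striatal genes, 0.689 in fluoxetine and 0.616 in lithium libraries. Nr1d1 and Ciart had r = 0.602 (rho = 0.572, permutation adjusted p = 0.0003), with 0.553 without the 2 farthest libraries, 0.512 within the 45 and 0.816 within the 14, and by treatment 0.400 in vehicle, 0.751 in fluoxetine and 0.585 in lithium libraries. Nr1d1 and Dbp had r = 0.398, which did not pass (permutation adjusted p = 0.0900), and by treatment 0.026 in vehicle, -0.218 in vehicle without the libraries high in striatal genes, 0.655 in fluoxetine and 0.450 in lithium libraries. Bhlhe40 had r = 0.426 with Ciart (rho = 0.434, permutation adjusted p = 0.0141), where Ciart ranked 645 among the other tested genes. That r was 0.332 without the 2 farthest libraries, 0.289 within the 45 and 0.793 within the 14. Per3 had r = 0.518 with Dbp, the D-box activator (rho = 0.477, permutation adjusted p = 0.00142), where Dbp ranked 377. The r of Per3 and Dbp was 0.489 without the 2 farthest libraries. That value was 0.643 within the 45 libraries and 0.051 within the 14. It was 0.399 (permutation adjusted p = 0.0523) without the libraries high in striatal genes.

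**Figure D4:**
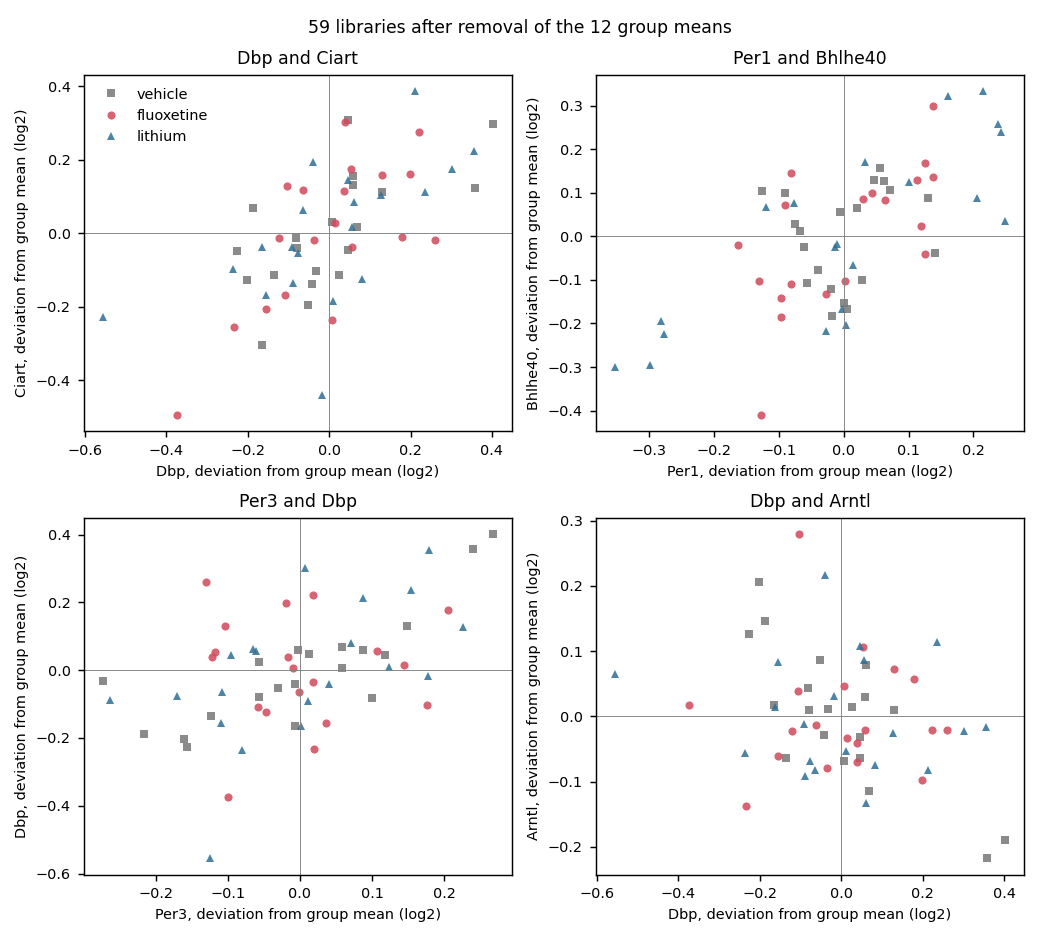
Deviations from the group mean on the log2 scale for 4 pairs of clock genes, 1 point per library, with squares for vehicle, circles for fluoxetine and triangles for lithium. Dbp and Ciart rise together in all 3 treatments (r = 0.643 over 59 libraries), while Dbp and Arntl run against each other among the squares (r = -0.791) and not among the circles (-0.006).

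Arntl, which peaks opposite to Dbp over the day, had negative r with 5 of the 9 other members and no called pair. The lowest were -0.314 with Dbp (rho = -0.245, permutation adjusted p = 0.208) and -0.311 with Bhlhe41 (rho = -0.276, permutation adjusted p = 0.105). In the 20 vehicle libraries Arntl and Dbp had r = -0.791 and Arntl and Per3 -0.698. These fell to -0.526 and -0.450 in the 18 vehicle libraries left without those high in striatal genes, a choice made after the values were seen. In fluoxetine libraries Arntl and Dbp had -0.006 and in lithium libraries -0.112. With Nr1d1, its direct repressor, Arntl had r = 0.092.

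As a description, the first principal component of the 10 standardized deviations held 30.0% of their variance, and Ciart, Bhlhe40, Per2 and Dbp weighed most on it, all with the same sign (0.45, 0.44, 0.39 and 0.39), with Arntl near 0 at -0.05. The second held 18.2%, with Arntl (0.51), Bhlhe40 (0.40) and Per1 (0.32) opposite Dbp (-0.43), Per3 (-0.40) and Bhlhe41 (-0.31). The library lowest on the first component was HT fluoxetine male 1 (-5.37, the next being -2.79), which also had the highest bulb marker level of the 59. The lowest on the second were HT vehicle female 3 and HT vehicle male 3, both high in striatal genes.

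Among clock genes outside the set, Arntl varied most with its partner Clock (r = 0.60), and Clock ran against Dbp (-0.57). Hlf had r of 0.62 with Ciart and 0.58 with Dbp, Tef 0.62 with Per2, and Cry2, a cryptochrome that acts with PER proteins, 0.62 with Per2 and 0.60 with Bhlhe40. Nfil3 had -0.51 with Ciart. For scale, the central 95% of all tested genes had r between -0.466 and 0.486 with Ciart and between -0.475 and 0.448 with Arntl. These values share the same libraries and tissue makeup and carry no test.

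Genes nearest to the members over the 59 libraries were found without regard to function. Per1 was closest to Egr2, an immediate early transcription factor (r = 0.747), Stk40 (0.728) and Nab2, a corepressor of EGR proteins (0.711). Bhlhe40 was closest to Dusp6, a phosphatase that acts on ERK (0.826), and Ccnd2, a cyclin (0.728). Per2 was closest to Trak1 (0.767) and Irs2, an insulin receptor substrate (0.766), and ran against Pxylp1 (-0.735). Per3 was closest to C78859 (0.800), Eogt (0.779) and Vcam1, an adhesion molecule (0.764), and ran against Smap1 (-0.815). Dbp was closest to Tmem191c (0.775) and ran against Grik2, a kainate receptor subunit (-0.705). Ciart was closest to Sytl2 (0.691) and ran against Dscaml1 (-0.700). Nr1d1 was closest to Tnpo2 (0.643), Nr1d2 to Slc33a1 (0.660) and Bhlhe41 to the purinergic receptor gene P2ry1 (0.664). Arntl was closest to Abr (0.680) and ran against Cnksr3 (-0.720), Ick (-0.719) and Sox10, a factor of the oligodendrocyte lineage (-0.694).

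**Figure D5:**
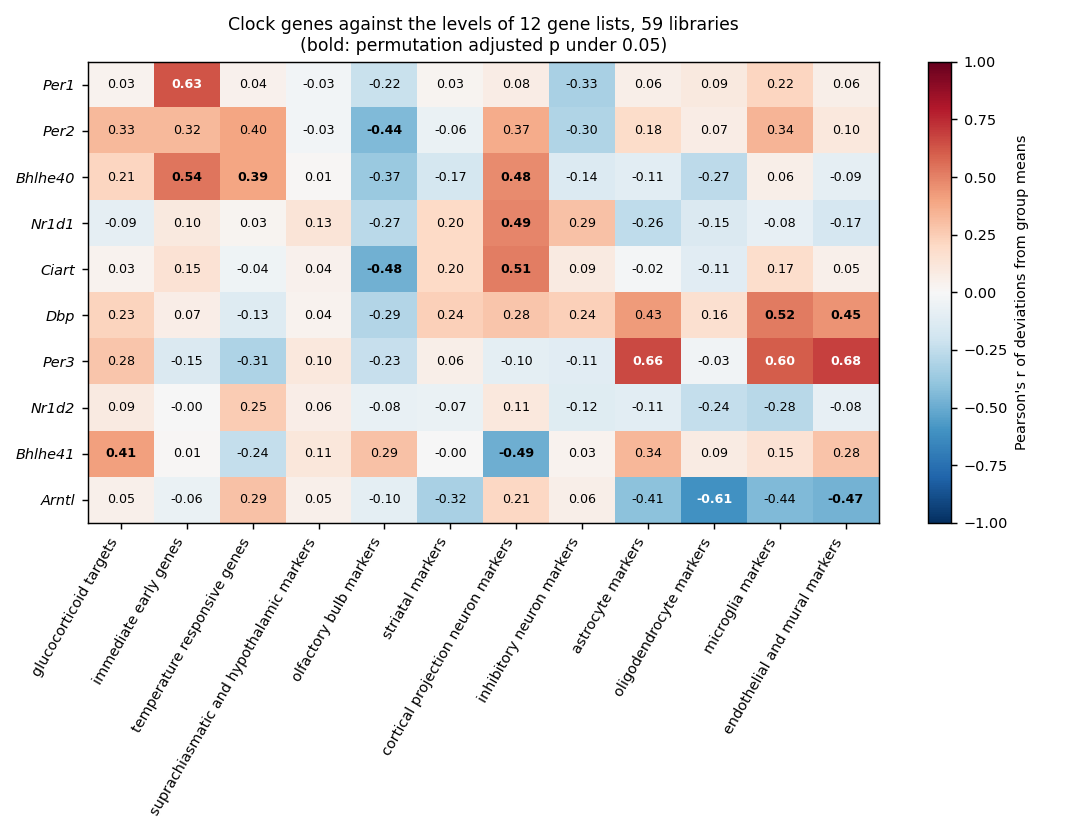
Pearson's r between each clock gene (rows) and the level of 12 gene lists (columns) over 59 libraries, after removal of group means, shaded from blue at -1 to red at 1. Bold cells have a permutation adjusted p under 0.05 over the 120 pairs, among them Per1 with immediate early genes (0.63) and Per3 with the endothelial, astrocyte and microglia lists (0.68, 0.66 and 0.60).

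Set against lists of marker and signal genes, 120 pairs in all, 17 pairs were called. Per1 and Bhlhe40 varied with the immediate early genes (r = 0.631 and 0.538, rho = 0.639 and 0.514, permutation adjusted p = 0.0008 and 0.0089), and these were 0.707 and 0.606 within the 45 libraries and 0.438 and 0.387 within the 14. Per3 varied with endothelial and mural (0.682), astrocyte (0.657) and microglia markers (0.604), with rho of 0.629, 0.592 and 0.501 and permutation adjusted p of 0.0008, 0.0008 and 0.0009. Within the 45 libraries these were 0.710, 0.727 and 0.641, and within the 14 they were 0.530, 0.216 and 0.389. Dbp varied with microglia markers (r = 0.516, rho = 0.490, permutation adjusted p = 0.00888), with 0.530 within the 45 and 0.513 within the 14. Its r with endothelial and mural markers was 0.453 (rho = 0.337, permutation adjusted p = 0.0297), with 0.585 within the 45 and -0.267 within the 14. Arntl varied inversely with oligodendrocyte markers (r = -0.606, rho = -0.407, permutation adjusted p = 0.00192), and r was -0.506 without the 2 libraries farthest from the median of those markers, -0.64 within the 45 and -0.50 within the 14. Its r with endothelial and mural markers was -0.471 (rho = -0.328, permutation adjusted p = 0.0443), with -0.608 within the 45 and 0.269 within the 14. Bhlhe40 varied with temperature responsive genes (r = 0.394, rho = 0.347, permutation adjusted p = 0.0273). Ciart and Per2 ran against the olfactory bulb markers (r = -0.477 and -0.441, rho = -0.525 and -0.415, permutation adjusted p = 0.0089 and 0.0099). Bhlhe41 varied with glucocorticoid targets (r = 0.411, rho = 0.379, permutation adjusted p = 0.0403) and against cortical projection neuron markers (r = -0.491, rho = -0.395, permutation adjusted p = 0.0089), while Ciart, Nr1d1 and Bhlhe40 varied with the latter (r = 0.514, 0.490 and 0.476, permutation adjusted p = 0.0168, 0.0171 and 0.0084). Those 4 relations to cortical markers were -0.331, 0.333, 0.264 and 0.336 within the 45 libraries and -0.805, 0.826, 0.764 and 0.736 within the 14. Without the 2 libraries farthest from the median of those markers, they were -0.406, 0.347, 0.312 and 0.326. Nr1d2 had no called pair with any of the 12 lists.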

How the data were processed

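The authors deposited 1 table of signal, in which each read count had been divided by the size factor of its library, for 18088 genes in 59 libraries. The library kit marks strand and selects messenger RNA, per the labels' protocols. Salmon 0.11.2, DESeq2 1.19.11, R 3.6.0 and the build GRCm38 are named, with no role, per the submitters' processing notes, and strand-specific counting is not given in the sources used here. All values (100% in the library with the lowest share) were whole multiples of what 1 read is worth, within 0.01 of a read, which gave totals of 25088446 to 35858365 reads per library. A symbol was matched to 18077 IDs and to 11 it was not.

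The 16546 genes whose mean reached 10 were tested with limma 3.58.1 (R 4.3.3, trend and robust) on log2(value + 1), with 12 group means, sexes averaged equally and Benjamini-Hochberg adjusted p under 0.05. Fold changes are on that scale. Alternatives were other pseudocounts and filters, quantile normalization, edgeR 4.0.16 and DESeq2 1.42.0 on the recovered reads, limma without a trend, the compared groups alone, a replicate block, the bulb level as a covariate, and leaving out libraries. Correlations used deviations from group means, with 100000 permutations within groups (10000 in alternatives), the smallest p being 1e-05. The r in vehicle libraries without those high in striatal genes was added after seeing the data. The fits and correlations were tested on simulated data.

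The 10 members were given by name, and the nearest genes were the 3 highest and 3 lowest r. Members, lists and tests were chosen with earlier results of these data known. Nothing in the labels says that libraries of a group came from separate litters, so p-values measure the spread between these libraries.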

Additional observations from a re-analysis of the deposited data

Results flagged for a closer look

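In 7 of the 120 combinations of a clock gene and a group of 4 or 5 libraries, 1 library lay far from the others by Dixon's criterion, which chance meets in about 1 in 20 groups. HT fluoxetine male 1 stood low for both Per2 (996.053 normalized counts, the others 1383.93 to 1458.45) and Bhlhe40 (2219.91, the others 3099.57 to 3314.37). That library also had the highest level of olfactory bulb markers, and the part of those markers was not tested. Arntl had 3 such libraries: HT fluoxetine female 3 (905.929, the others 678.566 to 735.075), HT lithium female 1 (921.387, the others 743.681 to 784.04) and WT vehicle male 3 (729.282, the others 767.313 to 778.162). For Nr1d2, WT vehicle female 4 stood high (3676.86, the others 3087.86 to 3139.81). For Dbp, WT fluoxetine male 2 stood low (1338.85, the others 1498.63 to 1552.33).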

How the results depend on the processing

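The counts of members called under lithium and between genotypes moved by less than 1.5 times under the alternatives run. Under fluoxetine in HT, 0 members were called when just the compared groups were fitted and 0 with the bulb level as a covariate, and leaving out single libraries gave 0 to 3. Under fluoxetine in WT, 5 were called in the compared groups alone and 0 with the bulb level as a covariate. Calls over all 16546 genes moved as well. In HT, 2244 were called in the compared groups alone and 1065 with the covariate, against 4833 in the main fit. In WT these were 3677 and 23, against 2464. The cause was not tested. Of member pairs, 29 were called when group means were not removed, which lets drug differences enter, and 1 within the 14 libraries, where fewer libraries enter. No called difference of a member changed direction under any alternative run. No called member pair did so under the alternatives other than leaving out 1 library, where single pairs were not followed. Relations to marker lists could change sign within the 14 libraries. With endothelial and mural markers, r went from 0.453 to -0.267 for Dbp and from -0.471 to 0.269 for Arntl.

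In none of the 7 comparisons did all same-numbered pairs have a correlation over 0.1, so the numbers were not taken to pair libraries. That count ran from 1 of 10 pairs (lithium in WT) to 4 of 10 (genotype in lithium), with r from -0.398 to 0.551. The libraries that correlated best with their own number ran from 1 of 20 to 7 of 20 in the same comparisons. With a replicate block, 5 members were called under lithium in WT, 1 under lithium in HT, 3 under fluoxetine in HT and 2 under fluoxetine in WT, and 7 pairs.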
